A study of Mus musculus with 12 samples.

Results

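The open chromatin of healthy Kupffer cells was compared with that of blood monocytes through 2 deposited ATAC-seq peak lists, which together hold 133117 of the 334073 peaks of the series. ATAC-seq marks open DNA by the sites where a transposase inserts sequencing adapters. Kupffer cells sorted as F4/80-Hi and Tim4-Pos from C57BL/6J mice on the control diet (KC-H) gave 63501 peaks over 12.7 Mb. Blood monocytes sorted as Ly6C-Hi from C57BL/6J mice on the NASH diet, a diet that models nonalcoholic steatohepatitis (Blood-Ly6CHi-NASH, here the blood list), gave 69616 peaks over 13.9 Mb. The pair was taken because these were the longest and the least alike of the 6 lists, so the size of their difference is a description and supports nothing. A peak was called list-specific when no peak centre of the other list lay within 1000 bp of its own centre.

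Each list was made from 2 libraries, 4 of the 12 libraries in the series, and gives 1 value for its group. There is therefore no spread between replicates and no test, and the 95% Wilson intervals given with shares cover counting error only. Tissue, diet and isolation differ together between the 2 lists and cannot be told apart: the liver was perfused and digested with flavopiridol present, and the sources used here do not say how the blood was handled. The other 4 lists came from livers of C57BL/6J mice on the NASH diet. They are Kupffer cells sorted as F4/80-Hi and Tim4-Pos (KC-N) or Tim4-Neg (KN-RM), and macrophages recruited to the liver, sorted as Cd11b-Hi and either Ly6CHi (Ly6CHi-RM) or Ly6CLo (Ly6CLo-RM). A list is also an average over many cells, so fewer cells with a site open and less opening per cell cannot be told apart.

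Kupffer cells are the resident macrophages of the liver sinusoids. They arise before birth, renew themselves in place, and clear bacteria, old red cells and lipoproteins from the blood through scavenger and complement receptors. Ly6C-high monocytes leave the bone marrow through the chemokine receptor Ccr2, circulate briefly and can become macrophages in tissue. Macrophage identity is written largely in distal enhancers, which PU.1 opens together with factors that the tissue induces. In Kupffer cells these include LXR-alpha, a nuclear receptor that pairs with RXR, together with MAF, SMAD and Notch effectors.

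Promoters of several genes that define the 2 cell types had a peak in only 1 of the 2 lists. A promoter is here the RefSeq window of 300 bases, from 250 before to 50 after a start site, in GRCm38.p6, the build of the lists. A list-specific peak of KC-H lay on such a window at 12 of the 20 genes of the Kupffer cell identity list that have one: Adrb1, C6, Cd5l, Clec1b, Clec4f, Fabp7, Il18bp, Pcolce2, Slc16a9, Timd4, Vsig4 and Xlr. None of the 20 had a list-specific peak of blood there. Of the 19 monocyte identity genes with a window, 9 had a list-specific peak of blood on it (Ahnak, Ccr2, Cx3cr1, Ifitm3, Ly6c2, Mcemp1, Ms4a4c, S100a4 and Vcan) and none had one of KC-H. Ccr2 (score 22), Ms4a4c (26) and Ifitm3 (28) were among the lowest-scored 25% of blood peaks and in none of the 4 other lists. With the blood list cut to the length of KC-H, where the last score kept is 23, the Ccr2 peak is lost. Among the KC-H peaks, Vsig4 (28) was in the lowest-scored 25%, and C6, Clec4f, Vsig4 and Xlr were in none of the 4. Over the whole table of 21262 windows at 17491 genes, 315 windows at 297 genes held a list-specific peak of KC-H, 458 windows at 421 genes one of blood, and 9390 windows at 8267 genes a peak of both lists.

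The 6 promoters printed here show the DNA that was open in 1 list at a defining gene, and were picked after their values were seen. Each is written 5′ to 3′ on the strand of the gene, in lower case, and capitals mark matches to the motifs searched. Timd4 encodes Tim4, the receptor for dying cells on which the sort was based. Its window is chr11:46810549-46810848 on the plus strand, and the KC-H peak centre lay 77 bp before the start site, with a score of 95. Clec4f encodes a galactose-binding lectin of Kupffer cells. Its window is chr6:83656067-83656366 on the minus strand, with the peak centre 17 bp after the start site and a score of 75. Cd5l encodes a secreted scavenger protein of macrophages. Its window is chr3:87357631-87357930 on the plus strand, with the peak centre 33 bp after the start site and a score of 129.
Timd4: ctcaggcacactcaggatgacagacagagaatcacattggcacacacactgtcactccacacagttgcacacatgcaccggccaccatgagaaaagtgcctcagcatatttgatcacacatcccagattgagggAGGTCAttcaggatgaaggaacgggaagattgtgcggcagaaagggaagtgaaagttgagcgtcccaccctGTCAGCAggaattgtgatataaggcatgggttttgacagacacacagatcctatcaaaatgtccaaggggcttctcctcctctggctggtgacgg
Clec4f: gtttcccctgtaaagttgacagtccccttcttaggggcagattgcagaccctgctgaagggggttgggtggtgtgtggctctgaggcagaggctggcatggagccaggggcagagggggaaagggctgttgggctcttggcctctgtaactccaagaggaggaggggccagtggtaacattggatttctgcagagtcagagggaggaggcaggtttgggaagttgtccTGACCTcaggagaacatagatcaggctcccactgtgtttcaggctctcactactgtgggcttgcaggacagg
Cd5l: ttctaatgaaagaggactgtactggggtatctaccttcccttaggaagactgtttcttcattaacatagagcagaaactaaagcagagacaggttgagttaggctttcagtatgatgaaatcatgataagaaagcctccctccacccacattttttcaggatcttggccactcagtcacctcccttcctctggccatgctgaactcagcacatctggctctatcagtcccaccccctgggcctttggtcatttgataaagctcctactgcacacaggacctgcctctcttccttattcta

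The blood promoters follow in the same form. Ly6c2 encodes the surface protein Ly6C on which the monocytes were sorted. Its first window is chr15:75111922-75112221 on the minus strand, with the peak centre 54 bp before the start site and a score of 51. S100a4 encodes a calcium-binding protein of motile cells. Its window is chr3:90603520-90603819 on the plus strand, with the centre 29 bp before the start site and a score of 105. Cx3cr1 encodes the fractalkine receptor. Its window is chr9:120068247-120068546 on the minus strand, with the centre 20 bp before the start site and a score of 104.
Ly6c2: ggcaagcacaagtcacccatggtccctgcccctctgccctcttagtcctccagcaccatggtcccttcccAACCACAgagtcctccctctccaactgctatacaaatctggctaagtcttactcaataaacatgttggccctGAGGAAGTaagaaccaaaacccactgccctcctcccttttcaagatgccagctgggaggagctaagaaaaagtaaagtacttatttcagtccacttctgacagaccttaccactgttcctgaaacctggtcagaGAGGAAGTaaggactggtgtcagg
S100a4: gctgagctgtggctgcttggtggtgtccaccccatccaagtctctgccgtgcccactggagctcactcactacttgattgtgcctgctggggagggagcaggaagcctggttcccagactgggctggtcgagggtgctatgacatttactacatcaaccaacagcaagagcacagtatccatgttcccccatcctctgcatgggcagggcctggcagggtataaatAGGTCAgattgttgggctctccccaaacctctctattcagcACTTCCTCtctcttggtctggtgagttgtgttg
Cx3cr1: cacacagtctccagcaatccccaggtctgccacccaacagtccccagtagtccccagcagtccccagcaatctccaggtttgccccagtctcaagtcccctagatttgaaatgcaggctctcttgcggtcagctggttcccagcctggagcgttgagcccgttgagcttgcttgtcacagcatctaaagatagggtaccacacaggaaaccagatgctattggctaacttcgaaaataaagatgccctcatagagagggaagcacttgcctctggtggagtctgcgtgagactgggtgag

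The 6 promoters differed in how far the opening reached into the other lists. The Timd4 peak had a counterpart in KC-N alone, that of Clec4f in none of the 4 other lists, and that of Cd5l in KC-N and KN-RM. The Ly6c2 and S100a4 peaks were found in Ly6CHi-RM and Ly6CLo-RM, and the Cx3cr1 peak was found in all 4, so KC-H was the 1 list without it.

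Short motifs of macrophage factors were searched on both strands of every window, by exact match. Timd4 held the nuclear receptor site AGGTCA with its first base at -116 and the MAF site TGCTGAC, on the minus strand, with its first base at -45, counted from the start site. Clec4f held a minus-strand AGGTCA at -22. Ly6c2 held the PU.1 site GAGGAAGT at -108 and 26 and the RUNX site AACCACA at -180. S100a4 held AGGTCA at -24 and GAGGAAGT on the minus strand at 17, and Cd5l and Cx3cr1 held none of the 10 motifs in these windows. AGGTCA occurred in 17.8% of the windows with a list-specific peak of KC-H (Wilson 14.0% to 22.4%), 9.83% of those with one of blood (7.42% to 12.9%), 10.9% of those with a peak of both lists and 14.7% of all windows. TGCTGAC occurred in 6.67% (4.40% to 9.98%), 2.62% (1.51% to 4.52%), 3.37% and 4.30% of the same sets. Both motifs thus had their higher share in the KC-H set, and for AGGTCA the share in all windows lay inside the interval of that set.

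The order was the other way for PU.1 and KLF motifs. GAGGAAGT and the KLF site CCACACCC each occurred in 2.86% of the KC-H set (1.51% to 5.34%) and 5.68% of the blood set (3.90% to 8.19%), against 3.13% and 3.63% of all windows. The AP-1 site TGAGTCA occurred in 4.76% and 6.77% (4.66% of all) and AACCACA in 4.76% and 5.24% (4.71%). The IRF site GAAAGTGA occurred in 0.952% and 1.97% (1.46%) and the RBPJ site CGTGGGAA in 1.27% and 1.31% (0.856%). The MiT/TFE site TCACGTGA occurred in 1.90% of the KC-H set and in 0 of 458 blood windows (Wilson upper bound 0.832%), and in 1.23% of all windows. The C/EBP site TTGCGCAA occurred in 0 windows of either set (upper bounds 1.20% and 0.832%) and in 0.221% of all. The motifs do not contain one another, but matches of different motifs can overlap. The intervals of the KC-H and blood sets were apart for AGGTCA and TCACGTGA and overlapped for the other 8 motifs. For TCACGTGA they were barely apart, with a lower bound of 0.876% in KC-H from 6 windows. Windows of 1 gene can overlap, as those of Ly6c2 do, so the same match can count more than once. The intervals do not allow for this. A match is a description of letters and not a bound site.

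Over the whole lists, blood monocytes had more list-specific peaks than Kupffer cells. Of the KC-H peaks, 13449 were list-specific (21.2%, 20.9% to 21.5%), and of the blood peaks 21990 (31.6%, 31.2% to 31.9%). With the blood list reduced to its 63501 best-scored peaks, so that both lists had the same length, the numbers were 14739 (23.2%) and 18195 (28.7%). The lists have no header: the eighth column, a whole number, is here called the score, and the sixth, from its place in the HOMER layout, the tag count. What the score measures is not stated, and it serves only to rank peaks within a list. Few peaks lay just beside the distance that decides the call. In KC-H, 408 peaks had the nearest blood centre at 900 to 1000 bp and 366 at 1000 to 1100 bp. For blood peaks the numbers were 273 and 237. Larger changes of the distance moved the count. At 500 bp and 2000 bp, list-specific peaks numbered 16659 and 10975 in KC-H, and 23647 and 19845 in blood. The median distance from a list-specific peak to the nearest centre of the other list was 7011 bp in KC-H and 11530 bp in blood.

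List-specific peaks had lower scores than shared ones. The deposited tag count had a median of 17.5 in KC-H and 50 in blood, and was not compared between lists. The median score was 35 for list-specific and 53 for shared peaks of KC-H, and 31 and 57.5 in blood. Among the best-scored 25% of peaks, 6.02% of KC-H and 6.67% of blood were list-specific. Among the lowest 25%, the shares were 35.4% and 56.7%. The blood excess was thus among peaks of lower score, and the lists were nearly level among their best-scored peaks. How much of the difference comes from peaks near the limit of detection in 1 list was not tested.

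**Figure D1:**
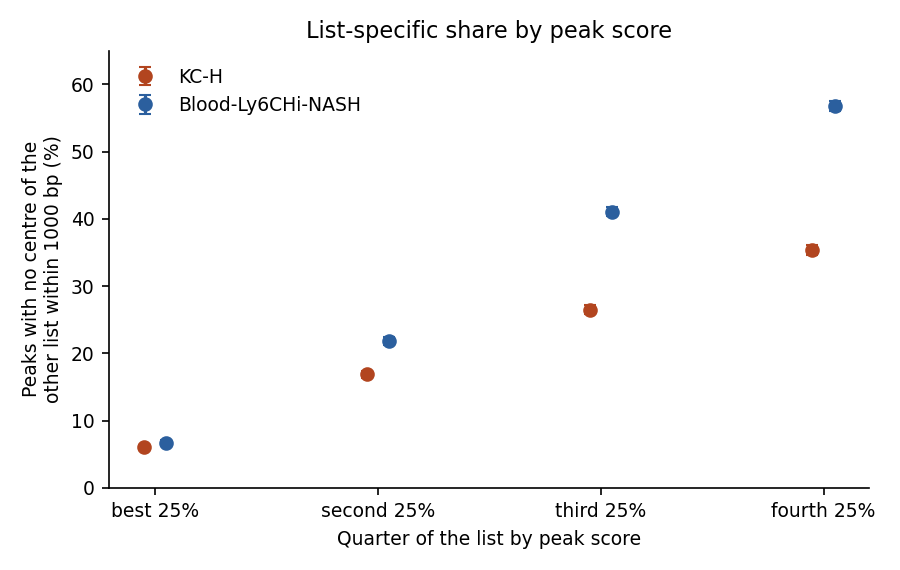
Share of each list that is list-specific (y axis, percent) in 4 equal classes of peak score (x axis), with 95% Wilson intervals as bars. Both lists start at 6.02% and 6.67% in the best-scored 25%, and reach 35.4% in KC-H and 56.7% in Blood-Ly6CHi-NASH in the lowest.

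Most list-specific peaks were away from gene ends. The gene table used gives no strand, so both ends of a gene were counted. Within 1 kb of a protein-coding gene end lay 7.73% (7.29% to 8.20%) of the list-specific peaks of KC-H against 33.6% (33.2% to 34.0%) of its shared peaks. In blood the shares were 6.15% (5.84% to 6.47%) and 33.0% (32.6% to 33.4%). Between 10 and 100 kb lay 46.6% of the list-specific peaks of KC-H and 50.9% of those of blood, against 31.9% and 32.7% of the shared peaks. Peaks inside gene bodies were about as common in each class, at 58.7% and 53.8% of list-specific and 57.6% and 56.4% of shared peaks. Across chromosomes 1 to 19 and X, the list-specific share ranged from 14.8% (X) to 24.9% (18) in KC-H and from 28.0% (11) to 35.6% (X) in blood, so the X chromosome was lowest in KC-H and highest in blood.

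The list-specific peaks of KC-H were found again mostly in the other Tim4-Pos population. Of the 13449, 50.9% (50.1% to 51.7%) had a centre within 1000 bp in KC-N, 25.3% (24.6% to 26.0%) in KN-RM, 17.3% (16.6% to 17.9%) in Ly6CLo-RM and 13.8% (13.3% to 14.4%) in Ly6CHi-RM. Shared peaks of KC-H were found at 87.2%, 73.4%, 87.7% and 94.5% in the same lists, so the order of the 4 lists was not the same for both classes. In KC-N and no other list were 2917 peaks, and 1763 were in KC-N and KN-RM alone. A further 5700 (42.4%) were in none of the 4, and 61.0% of the list-specific peaks in the lowest-scored 25% were among those.

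For the blood list the Cd11b-Hi lists came before KC-N and KN-RM, while KC-N again stood above KN-RM. Of its 21990 list-specific peaks, 61.3% (60.7% to 62.0%) were in Ly6CHi-RM, 37.9% (37.2% to 38.5%) in Ly6CLo-RM, 12.3% (11.9% to 12.7%) in KC-N and 5.22% (4.93% to 5.52%) in KN-RM. Those in Ly6CHi-RM alone numbered 5446, and 5426 were in both Cd11b-Hi lists and no other. In none of the 4 were 7520 (34.2%). Among the best-scored 25%, 99.6% (99.0% to 99.8%) of the 1161 list-specific peaks of blood were in Ly6CHi-RM and 87.3% in Ly6CLo-RM, while 35.3% were in KC-N. Among the 955 of KC-H in its best-scored 25%, 93.0% (91.2% to 94.4%) were in KC-N and 72.1% in KN-RM, while 23.9% were in Ly6CHi-RM. List length differs between the 4 lists, from 34293 peaks in KN-RM to 61492 in Ly6CHi-RM, and a longer list has more chances to hold a peak.

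**Figure D2:**
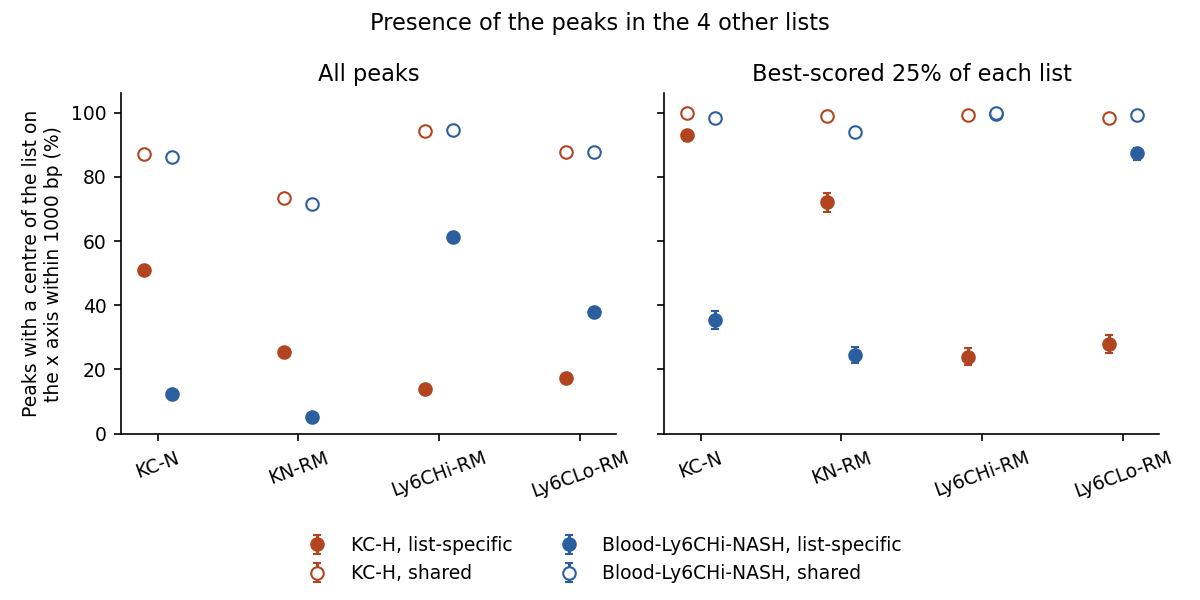
Share of list-specific (filled) and shared (open) peaks of KC-H and Blood-Ly6CHi-NASH that had a centre within 1000 bp in each of the 4 other lists (x axis), for all peaks and for the best-scored 25%, with 95% Wilson intervals as bars. Filled KC-H points are highest in KC-N (50.9% and 93.0%) and filled blood points are highest in Ly6CHi-RM (61.3% and 99.6%).

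A minority of the best-scored list-specific peaks were open in every population but 1. In all 4 other lists were 17.7% of the list-specific peaks of KC-H in its best-scored 25% and 20.2% of those of blood. The 3 of highest score in each direction were of this kind. For KC-H they were at chr10:100834881-100835081 (score 227), 216586 bp from the nearest protein-coding gene, at chr19:55232241-55232441 (225) inside the guanylate cyclase gene Gucy2g, and at chr4:6222108-6222308 (210) near Ubxn2b. For blood they were at chr2:134785993-134786193 (score 199), 71 bp outside an end of the phospholipase gene Plcb1, at chr1:159812855-159813055 (192) inside Tnr, and at chr7:107707811-107708011 (186) inside Ppfibp2. The first of these 6 was 245737 bp from the nearest blood centre, and the third was 3279 bp from it.

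To name genes, each peak was assigned to the protein-coding gene that contains its centre, or else to the nearest gene within 100 kb. A gene was called for a list when it had at least 2 more list-specific peaks of that list than of the other. Of 15506 genes with a peak in either list, 1541 were called for KC-H (9.94%) and 3305 for blood (21.3%). At equal length the numbers were 1831 of 15298 (12.0%) and 2642 (17.3%). The median difference over all genes was 0 peaks. Each count of called members below is read against these shares. Some genes are in more than 1 list and count in each. Where a count of called genes is given for a list with no equal-length count, the latter differed by at most 1 gene in each direction.

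Kupffer cell identity genes carried far more open sites in KC-H. Of the 24 genes, 18 were called for KC-H and 0 for blood, with 186 list-specific peaks of KC-H against 11 of blood and a median difference of 5 peaks a gene. At equal length 20 were called for KC-H and 0 for blood. Adrb1, the gene of an adrenergic receptor, led the list: it had 27 peaks in KC-H and 5 in blood, with 17 in KC-N, 12 in KN-RM, 10 in Ly6CLo-RM and 4 in Ly6CHi-RM. Clec4f had 18 peaks in KC-H and 1 in blood, while KC-N held 7 and KN-RM held 5. Both genes stepped down along the F4/80-Hi lists and were low in the blood list. The F4/80-Hi lists also shorten in this order (KC-H 63501 peaks, KC-N 50550, KN-RM 34293). The part of list length in these steps was not tested. Cd5l had 24 peaks in KC-H, KC-N had 13, KN-RM had 10, with 4 in Ly6CHi-RM, 1 in Ly6CLo-RM and 5 in blood.

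Timd4 stood apart from these genes in the NASH diet lists. It had 17 peaks in KC-H and 0 in blood, Ly6CHi-RM and KN-RM, with 1 each in KC-N and Ly6CLo-RM. The label of KC-H as Tim4-Pos thus went with open chromatin along the gene, while KC-N, with the same label, had 1 peak there. Marco, a scavenger receptor gene, had 15 peaks in KC-H, 7 for KC-N, 0 for KN-RM and 1 in each of the other 3 lists. Slc40a1 encodes ferroportin, which exports the iron of digested red cells. It had 20 peaks in KC-H, 5 in KC-N, 2 in KN-RM, 3 in each Cd11b-Hi list and 4 in blood. Like Timd4, it was high in KC-H alone.

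Some well-known members of the list were not called between the lists as deposited; they are named after their values were seen. Cd163, the haemoglobin scavenger receptor gene, had 7 peaks in KC-H and 8 in blood, but at equal length it had 3 list-specific peaks of KC-H against 1 of blood and was called for KC-H. Vsig4, a complement receptor gene, had 5 and 6 peaks. Folr2, a folate receptor gene, had 3 in both. Nr1h3, which encodes LXR-alpha, had 5 and 2 peaks, of which 1 was list-specific. A site open in both lists counts as shared whatever its height, so these counts say nothing about how open it was.

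Monocyte identity genes lay the other way. Of the 24, 13 were called for blood and 0 for KC-H (12 and 2 at equal length), with 84 list-specific peaks of blood against 9 of KC-H and a median difference of -2. Ahnak, which encodes a very large scaffold protein, had 18 peaks in blood and 4 in KC-H, with 17 in Ly6CHi-RM, 12 in Ly6CLo-RM, 5 in KN-RM and 4 in KC-N. F13a1, the gene of the clotting factor XIII A subunit, had 11 peaks in blood and 0 in KC-H. It had 11 in Ly6CHi-RM, 6 in Ly6CLo-RM and 2 each in KN-RM and KC-N, so among the 6 lists KC-H was the only one with none. Sorl1, a sorting receptor gene, had 18 peaks in blood and 7 in KC-H, and Vcan, the versican gene, had 9 and 3. Ly6c2, the sort marker, had 4 and 3 peaks, with 3 list-specific in blood and 1 in KC-H. Ccr2 had 6 and 3, with 4 and 1 list-specific. The median difference was thus smaller in size for these monocyte genes (-2) than for the Kupffer cell genes (5). Both gene lists were chosen with earlier results of these data known, so this compares the chosen genes and not the cell types.

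**Figure D3:**
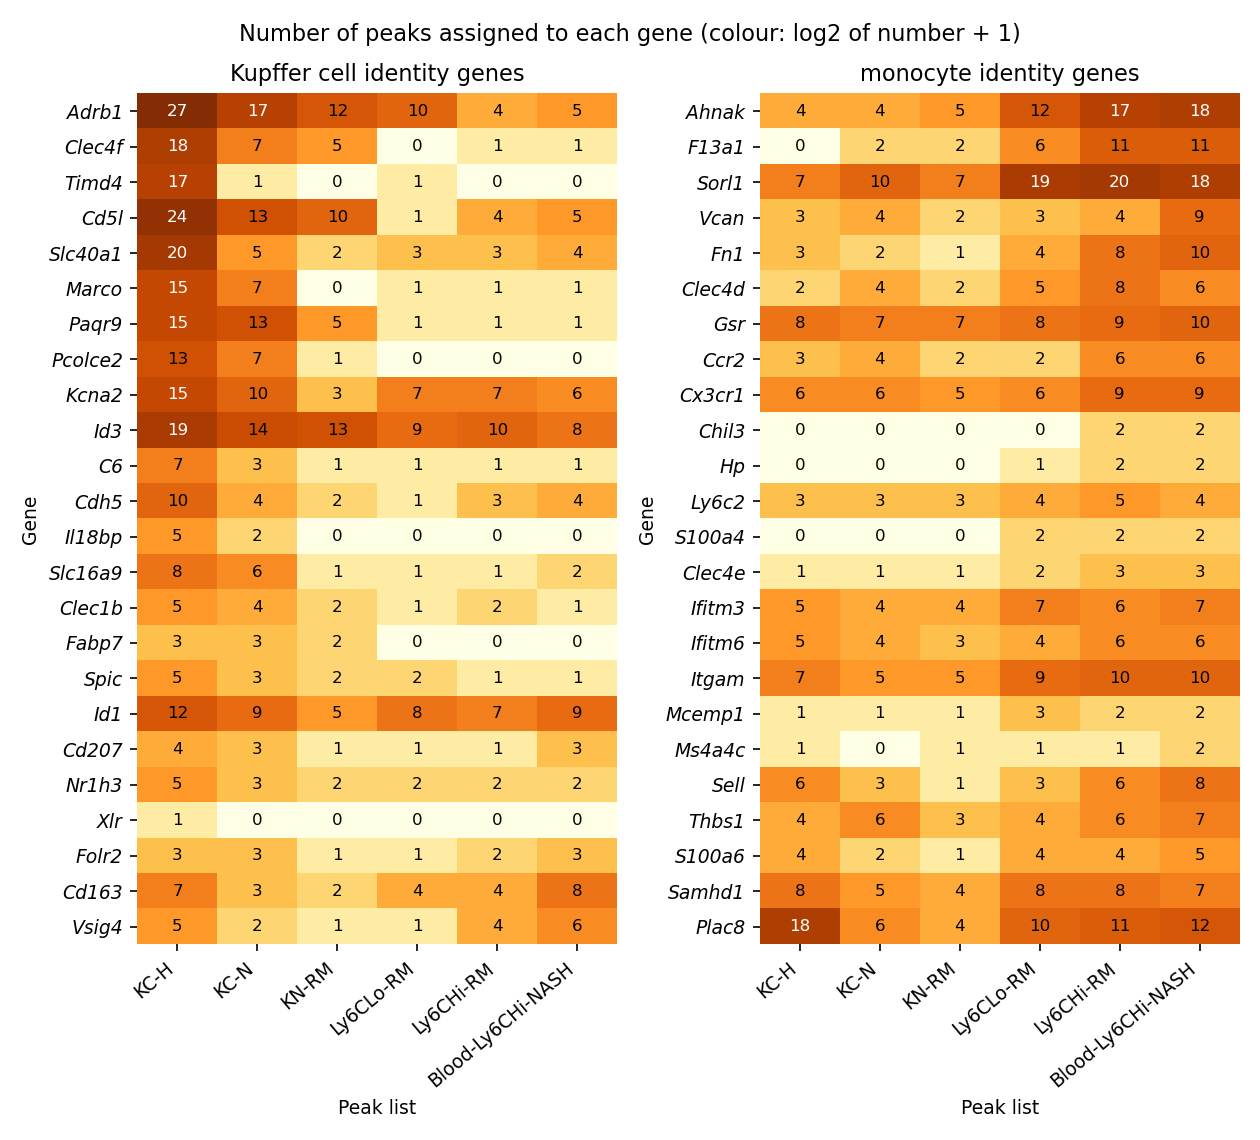
Number of peaks assigned to each Kupffer cell identity gene (left) and monocyte identity gene (right) in the 6 lists (columns); darker colour is a higher log2 of the number + 1. Adrb1 has 27 peaks in KC-H and 5 in Blood-Ly6CHi-NASH, and Ahnak has 4 and 18.

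The spread of sites along single genes is shown for Timd4, Clec4f, F13a1 and Flt3. Timd4 and its neighbour Havcr1 formed 1 run of 20 list-specific peaks of KC-H over 73.7 kb, with no blood peak between them. A run is a row of list-specific peaks of 1 list with neighbouring centres at most 12.5 kb apart. Of the 17 Timd4 peaks, 1 had a counterpart in KC-N and 1 in Ly6CLo-RM. Of the 17 list-specific peaks at Clec4f, 8 had a counterpart in KC-N and 8 in KN-RM. Of the 11 at F13a1, 9 had one in Ly6CHi-RM, 5 in Ly6CLo-RM and 2 each in KC-N and KN-RM.

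**Figure D4:**
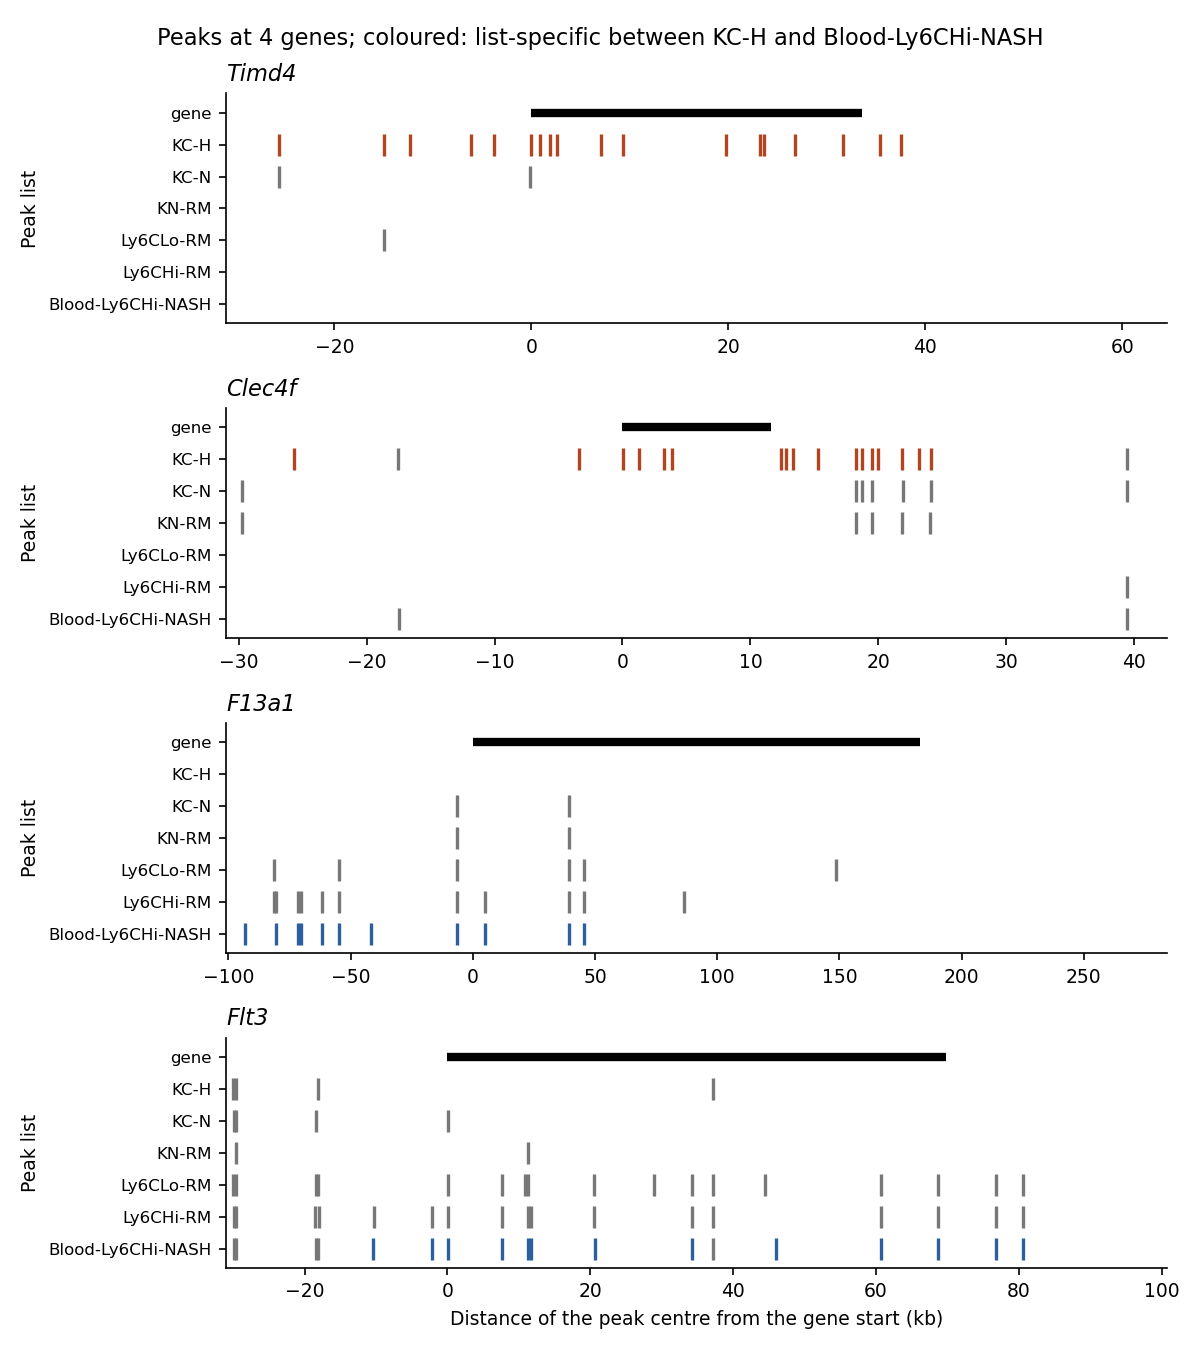
Peak centres in the 6 lists along Timd4, Clec4f, F13a1 and Flt3 (x axis, kb from the gene start in the direction of transcription; black bar, the gene), with peaks of neighbouring genes included up to 30 kb, or 100 kb for F13a1. Coloured ticks are list-specific between KC-H (brown) and Blood-Ly6CHi-NASH (blue); the row of 17 Timd4 peaks in KC-H, shown with 1 of Havcr1, has 0 partners in the blood list.

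KC-H had 289 runs of 5 or more list-specific peaks and blood 382, and runs of 10 or more numbered 43 and 29. With gaps of at most 5000 bp the runs of 5 or more numbered 152 and 102, and at equal length, with the wider gap, 330 and 277. The order of the 2 lists in this count thus turned with the gap and with the length of the blood list. The longest run of KC-H held 47 peaks on an unplaced sequence, and its span also held 17 peaks of blood. All 47 were found again by both NASH diet Kupffer cell lists, 34 by Ly6CLo-RM and 9 by Ly6CHi-RM. The next run held 32 peaks at Sfi1, a centrosome gene. Peaks in repeated sequence were not filtered, and their part in these 2 runs was not tested. A run of 20 at Mroh2a shared 0 peaks with KC-N and 4 with KN-RM, and its median tag count of 8.91 was near the lowest of the list, 8.3. Runs of 19 lay at Ccny, a cyclin gene, and Rasgef1b. Runs of 18 follow, named after their values were seen. The 3 C1q genes, which encode the recognition subunits of complement, formed one of 18 peaks in 20.2 kb. KC-N held 12 of these, KN-RM held 10 and Ly6CHi-RM held 1. Mertk, which encodes a receptor for dying cells, held the other.

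In blood the longest run held 20 peaks at Ccdc88c, of which 14 were in Ly6CHi-RM, 10 in Ly6CLo-RM and 0 in KC-N and KN-RM. Further runs lay at St8sia1 (15 peaks), a sialyltransferase gene, Uck2 (14), Syne3 (13) and Lrrk2 (13), the gene of a large kinase. Of the 13 at Lrrk2, 10 were in Ly6CHi-RM and 2 in KC-N. All 5 of these runs had more counterparts in Ly6CHi-RM than in KC-N or KN-RM.

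Receptors for uptake made up a further part of the KC-H sites. Of 16 scavenger and endocytic receptor genes, 10 were called for KC-H and 1 for blood (11 and 0 at equal length), with 101 list-specific peaks against 12; the list shares Marco, Clec4f and Cd163 with the identity list. Stab2, which clears hyaluronan and is known from sinusoidal endothelium as well, had 19 peaks in KC-H, 7 in KN-RM, 13 in KC-N and 1 in each of the other 3 lists. Lrp1, an endocytic receptor gene, had 36 peaks in KC-H and 20 in blood, with 10 list-specific against 1. The 1 gene called for blood was Scara5, with 2 peaks in blood and 0 in the other 5 lists.

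Of 20 genes for complement and dead cell uptake, 8 were called for KC-H and 3 for blood. Mertk had 29 peaks in KC-H, with 14 for KC-N, 11 for KN-RM, 7 in Ly6CHi-RM, 3 in Ly6CLo-RM and 7 in blood. C1qa, C1qb and C1qc had 6, 5 and 7 peaks in KC-H and 0 in blood. The 3 called for blood were Elmo1, an engulfment gene (36 peaks against 27 in KC-H), Itgb3, an integrin subunit gene (9 against 0), and Mfge8 (2 against 0).

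Lipid and lysosome genes leaned to KC-H too. Of 18 LXR and lipid handling targets, 8 were called for KC-H and 1 for blood (8 and 0 at equal length). Abca1, the cholesterol exporter and an LXR target, had 42 peaks in KC-H and 21 in blood, with 35 in KC-N, 24 in KN-RM, 21 in Ly6CHi-RM and 18 in Ly6CLo-RM. Of its 17 list-specific peaks, 16 had a counterpart in KC-N. Scd1, a fatty acid desaturase gene, had 16 peaks in KC-H and 8 in blood, and Mylip, which encodes a ligase that degrades the LDL receptor, had 12 and 4. Of 20 lysosome and MiT/TFE genes, 8 were called for KC-H and 3 for blood. Atp6v1a, a proton pump subunit gene, had 12 and 5 peaks, and the cathepsin genes Ctsb and Ctsd had 20 and 9 each. Of 15 iron and heme genes with a peak, 4 were called for KC-H and 2 for blood (5 and 0 at equal length), led by Slc40a1 and by Hmox1, the heme oxygenase gene, with 12 and 4.

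Transcription factor genes divided by family. Of 20 macrophage and Kupffer cell factors, 9 were called for KC-H and 7 for blood. Rxra, the partner of LXR, had 47 peaks in KC-H and 14 in blood, with 15 in KC-N, 10 in KN-RM, 7 in Ly6CHi-RM and 2 in Ly6CLo-RM, and all 22 of its list-specific peaks were of KC-H. Zeb2, which is needed for Kupffer cell identity, had 35 peaks against 19 in blood, and Id3, an inhibitor of DNA binding, had 19 against 8. Nfe2l2, a regulator of the oxidative stress response, had 21 against 12. Among the 7 called for blood was Smad7, an inhibitor of TGF-beta signalling, with 11 peaks against 5 in KC-H; it was named after its values were seen.

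Of 20 monocyte and progenitor factors, 8 were called for blood and 3 for KC-H. The RUNX genes all leaned to blood. Runx3 had 23 peaks in blood and 4 in KC-H, with 26 in Ly6CLo-RM, 20 in Ly6CHi-RM and 8 each in KC-N and KN-RM. Runx2 had 27 and 9, and Runx1 had 38 and 28. Foxp1, a forkhead factor gene, had the largest excess of blood of all genes, with 59 peaks against 20 in KC-H, 50 in Ly6CLo-RM, 49 in Ly6CHi-RM, 8 in KN-RM and 24 in KC-N. The 3 called for KC-H were Cebpb with 50 peaks against 30, Irf8 with 34 against 23, and Klf2 with 18 against 5. Cebpa, by contrast, had 10 in KC-H and 16 in blood.

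Genes for movement and adhesion leaned to blood. Of 16 chemokine receptor and trafficking genes, 8 were called for blood and 1 for KC-H (8 and 3 at equal length). Cxcr4, which holds cells in the bone marrow, had 23 peaks in blood and 9 in KC-H, and Gpr183, an oxysterol-guided receptor gene, had 7 and 0. Of 18 adhesion and integrin genes, 7 were called for blood and 2 for KC-H. Alcam, an adhesion molecule gene, had 20 peaks in blood and 1 in KC-H, but 10 in KC-N, 5 in KN-RM, 17 in Ly6CHi-RM and 15 in Ly6CLo-RM. Itga6, the alpha-6 integrin gene, had 16 and 5. Vcam1 was called for KC-H, with 13 peaks against 6, and had 13 in KC-N and 0 in Ly6CLo-RM.

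Among 17 growth factor and cytokine receptor genes with a peak, 9 were called for blood and 3 for KC-H. Flt3, a receptor of progenitors and dendritic cells, had 12 peaks in blood, 11 in both Cd11b-Hi lists, and 1 in each of the 3 F4/80-Hi lists. Csf1r, the receptor on which macrophages depend for survival, had 16 peaks in KC-H and 7 in blood. Of 18 cell cycle genes, 6 were called for blood and 1 for KC-H (4 and 2 at equal length), led by Ccne1, the cyclin E1 gene, with 14 and 6. Of 15 respiratory burst and granule genes with a peak, 4 were called for blood and 1 for KC-H.

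Genes of inflammation and antigen presentation did not form 1 block. Of 19 NF-kB and inflammatory genes with a peak, 8 were called for KC-H and 3 for blood (9 and 2 at equal length). Tnfaip3, an inhibitor of NF-kB, had 22 peaks in KC-H and 11 in blood, with 33 in Ly6CLo-RM. Nfkb1 itself had 13 and 23, and Il1b had 12 and 8. Of 16 Toll-like receptor and adaptor genes, 6 were called for blood and 3 for KC-H (4 and 3 at equal length). Tlr5, a flagellin receptor gene, had 16 peaks in blood and 8 in KC-H, and Tlr4, the endotoxin receptor gene, had 11 and 14. Of 16 interferon response genes with a peak, 4 were called for KC-H and 0 for blood, with Irf2 at 38 against 26 and Irf1 at 24 against 16. Of 13 MHC class II genes, 4 were called for KC-H and 0 for blood. Cd74, the invariant chain gene, had 19 and 7 peaks and H2-Aa had 9 and 3, and both were as high or higher in Ly6CLo-RM, at 19 and 17.

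Early response genes were nearly even in number of calls, with 3 called for KC-H and 4 for blood of 16. The shares over all genes were not even, at 9.94% and 21.3%. Klf6 had 33 peaks in KC-H and 39 in blood, and Fosb had 22 and 10. TGF-beta, BMP and Notch response genes had 5 and 6 called of 20, and 5 and 3 at equal length, so the order of that list turned with the length of the blood list. Skil, a repressor of SMAD signalling, had 17 peaks in KC-H and 7 in blood, and Smad3 had 11 and 19. Of 18 genes of Trem2-type lipid-associated macrophages, 5 were called for KC-H and 4 for blood. Hilpda, a hypoxia-induced lipid droplet gene, had 9 and 1, and Anxa2, the annexin A2 gene, had 2 and 10.

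**Figure D5:**
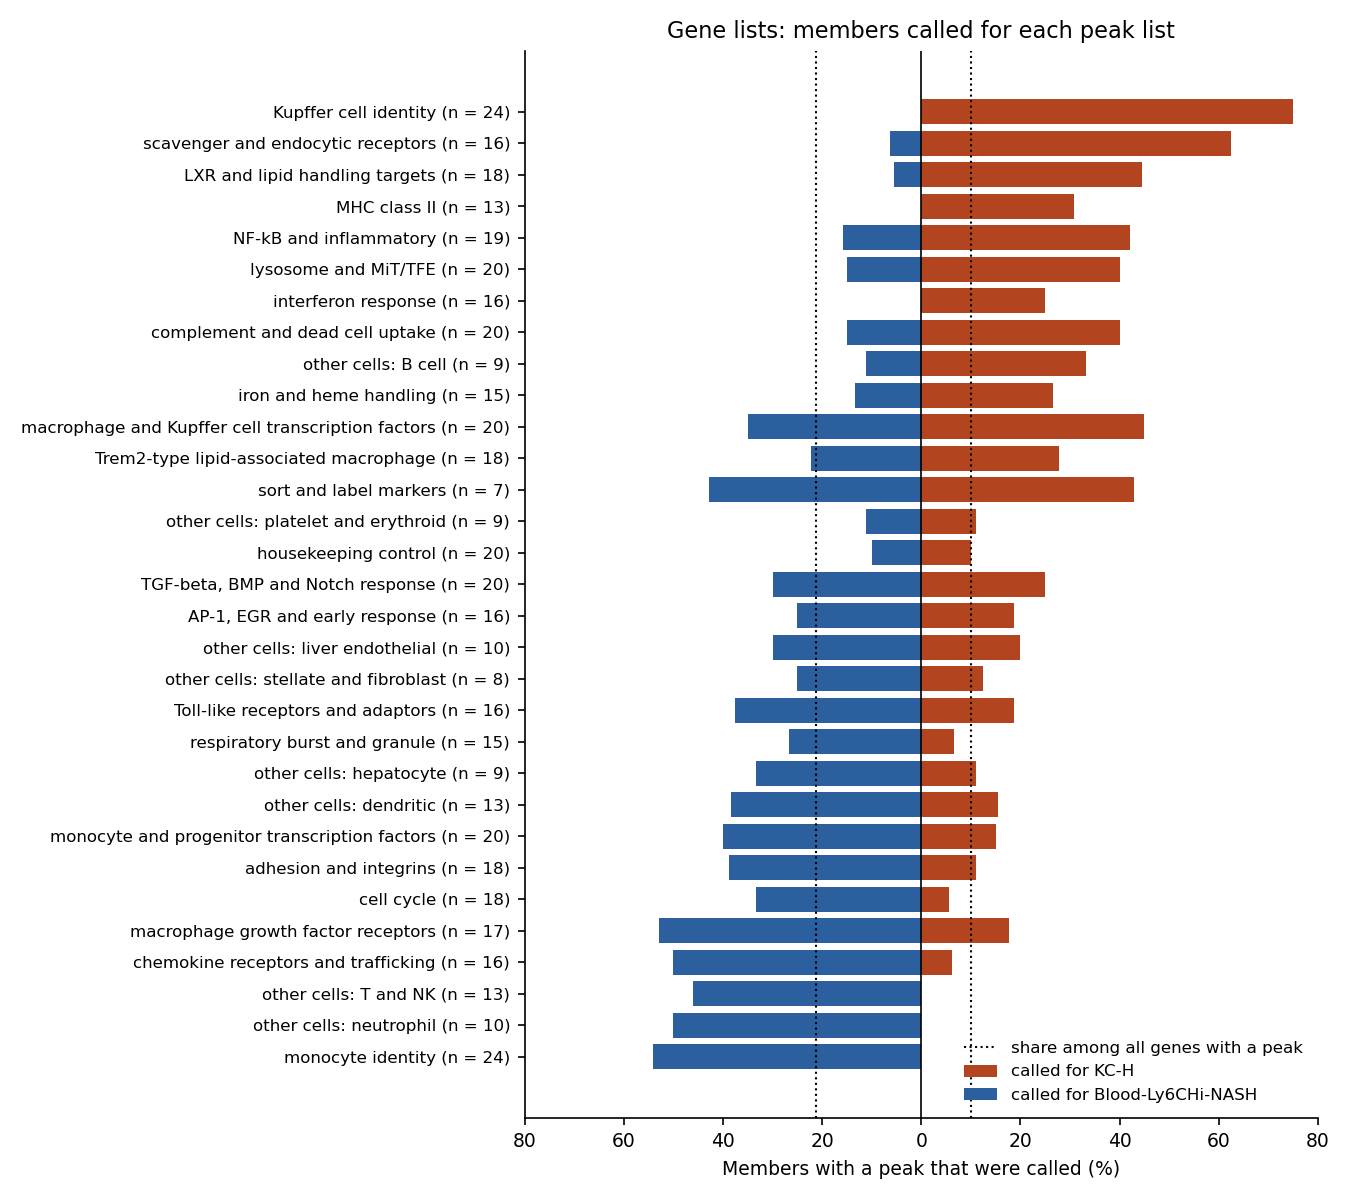
Share of the members with a peak that were called for KC-H (right, brown) or Blood-Ly6CHi-NASH (left, blue) in 31 gene lists, with n members with a peak in brackets and the shares over all genes as dotted lines (9.94% and 21.3%). Kupffer cell identity is at the top, with 18 of 24 called for KC-H, and monocyte identity at the bottom, with 13 of 24 called for blood.

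The genes with the largest excess were long. The 10 first for KC-H were Itga9 (37 list-specific peaks of KC-H and 2 of blood), Ptprm (34 and 1), Sfi1 (33 and 1), Wdfy3 (30 and 2), Sema6d (33 and 6), Rasgef1b (27 and 3), Sash1 (26 and 3), Frmd4b (24 and 1), Rxra (22 and 0) and Itsn1 (22 and 0). For blood they were Foxp1 (38 list-specific peaks of blood and 1 of KC-H), Pde4d (35 and 1), Xylt1 (32 and 0), Prkce (26 and 1), St8sia1 (25 and 0), Sgms1 (24 and 0), St3gal1 (22 and 0), Bcl11a (23 and 1), Sgms2 (22 and 0) and Stxbp6 (21 and 0). The median gene length was 231 kb and 245 kb, against 23.1 kb over all genes with a peak, and a longer gene collects more peaks. Sgms1 and Sgms2 encode the 2 sphingomyelin synthases, and St8sia1 and St3gal1 encode sialyltransferases. Itga9 encodes an integrin subunit and Ptprm a receptor phosphatase of cell contacts. Ptprm had 39 peaks in KC-H, 21 in KC-N, 7 in KN-RM, 4 in Ly6CHi-RM, 2 in Ly6CLo-RM and 5 in blood, whereas Sgms2 had 22 in blood, 17 in Ly6CHi-RM, 8 in Ly6CLo-RM, 1 in KC-N and none in KC-H or KN-RM. Xylt1, a xylosyltransferase gene, had 34 peaks in blood and 1 in KC-H, but KC-N held 13 and KN-RM held 10, so it was open in both NASH diet Kupffer cell lists.

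The sort markers went with the labels to different degrees. Timd4 is described above. Adgre1, which encodes F4/80, had 8 peaks in KC-H and 6 in blood. Itgam, which encodes Cd11b, had 7 and 10, Ly6c1 had 1 and 3, with 2 list-specific peaks of blood, and Ptprc, the CD45 gene carried by all leukocytes, had 10 and 17. Ly6c1 and Ly6c2 were called for blood as deposited and not at equal length. Of 20 housekeeping genes, 2 were called for each list, and Ywhaz had 15 peaks in KC-H and 21 in blood.

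Markers of other cells had peaks in both lists, and they are given here because either sort could hold such cells. Hepatocyte markers had 13 peaks in KC-H and 29 in blood, with 3 of 9 genes called for blood and 1 for KC-H, and 7 of the 16 listed genes had no peak in either list. Alb, the albumin gene, had 11 peaks in blood, 1 each in KC-H and KC-N, and 0 in the other 3. Liver endothelial markers had 51 and 57 peaks, with 2 of 10 called for KC-H and 3 for blood; Lyve1 had 1 in each and Clec4g 2 in each, and Gata4, Tek and Tie1 had 0. Endothelial-type genes went both ways, with Stab2 as above, Cdh5 at 10 in KC-H and 4 in blood, Flt1 at 9 and 21, and Erg at 3 and 15. Stellate and fibroblast markers had 27 and 31 peaks, with 1 of 8 genes called for KC-H, Hgf at 9 and 6, and 2 for blood, Col1a1 and Ngfr at 0 and 3 each; Lrat, Des and Lum had 0 in both. T and NK cell markers had 19 and 36, with 6 of 13 called for blood and 0 for KC-H (4 of 12 and 0 at equal length). Cd8a, Cd3g and Bcl11b had 0. B cell markers had 30 and 22, with Blk at 6 and 1, and Cd79b at 0. Dendritic cell markers had 82 and 94 peaks, with 2 of 13 called for KC-H and 5 for blood (4 and 4 at equal length), and Tcf4 at 33 and 28. Neutrophil markers had 27 and 42, with 5 of 10 called for blood and 0 for KC-H, as at equal length. The 5 were Cxcr2 (0 peaks in KC-H and 3 in blood), Ltf (4 and 7), Il1r2 (5 and 8), Csf3r (7 and 8) and Cd177 (0 and 2), while Ly6g, Ngp and Camp had 0 in both lists. Platelet and erythroid markers had 13 and 15. The part of such cells in the counts for Stab2, Alb, Flt3 and the other genes named here was not tested.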

How the data were processed

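ATAC-seq peak lists of liver macrophages and blood monocytes were used as the authors deposited them, 1 list per group from 2 libraries each. Each line holds a position, a signal (normalized tag count) and a score, deposited without a header. The columns were identified from the layout, that of a HOMER peak file, and from their values; what the score measures is not stated. The submitters' processing notes name mm10, GRCm38, Bowtie2, HOMER and DESeq2. Read depth, filters, the shift for transposase insertion and the reproducibility threshold were not given in the sources used here, so the precision of a single peak is unknown. Peaks are 200 bp wide apart from 4 of KC-H, 2 each of KC-N and Ly6CLo-RM, and 1 each of KN-RM and Ly6CHi-RM. No label says that the 2 libraries of a group came from separate animals.

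Peaks were matched by their centres, within 1000 bp. At equal length the blood list was cut to its best-scored 63501 peaks, which left out 6115, and the last peak kept had a score of 23. Genes came from a RefSeq GRCm38.p6 table of 21883 protein-coding genes, which matched 482 of 483 symbols in 31 lists; promoter windows and sequences came from RefSeq in the same build. Counts and Wilson intervals were computed in Python 3.11.15 with numpy 2.4.6, pandas 2.3.3 and scipy 1.17.1, and figures with matplotlib 3.10.9. The counting was tested on simulated lists. No test between groups was made, since a group has 1 list.

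The lists compared, the gene lists and the named genes were chosen with earlier results of these data known. Named are the 10 genes with the largest excess in each direction, in every gene list up to 4 members whose difference was greatest and at least 2, the sort markers, and the 3 best-scored regions and 5 longest runs in each direction. Other genes, such as those that complete a short count, were named after their values were seen. Results of some single genes are not reported here. Alternatives were other matching distances, lengths, gene windows, call thresholds and gaps.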

Additional observations from a re-analysis of the deposited data

How the results depend on the processing

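No paired analysis was possible because each group has 1 list and no test was made, and for the same reason no replicate could be left out. Reducing the list under test to its best-scored 50% or 25% lowered the list-specific peaks of KC-H to 3630 and 954 and those of blood to 4967 and 1161, and the genes called to 573 and 129 for KC-H and 836 and 180 for blood. Fewer peaks were tested in these settings, and the list-specific share was lower too. In the best-scored 50% and 25% it was 11.4% and 6.01% in KC-H, and 14.3% and 6.67% in blood. Over the alternatives the list-specific share ran from 6.01% to 31.5% in KC-H and from 6.67% to 37.5% in blood, lowest in the best-scored 25% and highest with an overlap of 1 bp. A call at a difference of 1 or 3 peaks gave 3207 or 900 genes for KC-H and 6529 or 1923 for blood. Runs of 5 or more numbered 32 (best-scored 50%), 152 (gap of 5000 bp) and 460 (25000 bp) in KC-H, and 30, 102 and 824 in blood; at equal length they numbered 330 and 277.

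Of the 132 genes named by rule, 131 were called as deposited, and 122 of these had no difference of the opposite sign under the 13 alternatives for genes. Many lost their call or came to 0: in the best-scored 50% and 25%, 61 and 94 of the 132 crossed the call threshold. The KC-H minus blood difference turned to -1 for Actb (best-scored 50% and 25%) and to -1 for Dusp1, 2 for Fos and 1 for Tlr2 (best-scored 50%). It turned to 1 for Fos and Ly6c2 (best-scored 25%), 1 for Bank1 and Csf3r (gene window of 20 kb), 1 for Cd44 (equal length by tag count), and 4 for Cdk6 (overlap of 1 bp, and equal length by score). The cause was not tested. The order of called genes turned in 6 alternatives for TGF-beta, BMP and Notch response, 3 for early response, 2 for iron and heme, and 1 each for NF-kB and liver endothelial markers.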
